A study of Mus musculus with 20 samples.

Results

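The genes described here are 9 of the 45706 genes in the count files, most of them known for cell polarity or for traffic to the apical membrane of epithelial cells. They are *Rab25*, *Rab11fip1*, *Myo5b*, *Crb3*, *Pard6b*, *Prkcz*, *Llgl2*, *Prkch* and *Mpzl2*. They were chosen by measured values, namely the scaled counts of all 20 samples compared over the 6 groups of the study. Their levels and differences in these samples are therefore a description, with no test, and the number of them past a threshold supports nothing. The same holds for the number whose groups do not overlap, since the share over all genes was not computed. Test results are drawn on only for 118 companion genes from the same pathways, of which 116 could be tested in tumors and 110 in cells, fitted together with all other genes. Where members or cell-type markers are said to be past a threshold, this describes their fitted values.

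An epithelial sheet separates an apical membrane, which faces the lumen, from the basolateral membrane, which faces neighbouring cells and the matrix. The Crumbs and Par complexes mark the apical side and the Scribble group the basolateral side, and each keeps the other out by phosphorylation and exclusion. Recycling endosomes that carry Rab11-type GTPases and myosin V motors bring apical proteins to their membrane. In the mammary gland this arrangement surrounds the duct lumen, and its loss is a known feature of mammary carcinoma.

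RNA was sequenced from tumors and from tumor cells of mice in which the polyoma middle T oncogene (PyMT) is driven in mammary epithelium by the MMTV promoter. *Ctsd* encodes the lysosomal protease cathepsin D. The study asks what the loss of this protease does to tumors and to starved tumor cells, and how cells without it adapt over time. The mice had a C57BL/6N background. Tumors came from animals of 18 weeks, 4 with *MMTV-cre;Ctsd*-/- and 4 controls. In the former, a Cre recombinase under the same kind of promoter deletes exon 2 of *Ctsd* in mammary epithelium, so that stromal cells keep the gene. The controls, labelled wild type, carried untargeted or floxed but not recombined alleles, heterozygous or homozygous, and the labels do not say which animal had which. Control tumors were sequenced in 1 run and *Ctsd*-/- tumors in another, so run and genotype cannot be told apart.

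The cells were spontaneously immortalized PyMT tumor cell lines, 1 from a *Ctsd*+/+ mouse and 1 from an *MMTV-cre;Ctsd*-/- mouse, so that genotype and cell line cannot be told apart. Both were starved in medium with 1% fetal calf serum (FCS) for 10 days, called 1% FCS, or for 12 weeks, called 1% FCS LT. Each of these 4 groups has 3 samples. A single sequencing run holds 8 of the 12 cell samples. The others are replicate 1 of both genotypes in 1% FCS and replicate 3 of both genotypes in 1% FCS LT, each pair in a run of its own. Counts on genes ranged from 49725437 to 64291587 per tumor and from 33622831 to 40239762 per cell sample. Levels are CPM, counts relative to the total of the sample as edgeR's cpm function gives them, after trimmed mean of M-values (TMM) scaling, done separately for tumors and for cells. Tumor and cell levels set side by side are therefore on separate scales. All 9 genes passed the filter on low counts in both materials.

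The targeted gene followed the labels in every sample. *Ctsd* stood at 1860.2, 2617, 1781 and 2532 CPM in control tumors and at 797, 360.2, 1295 and 1233 CPM in *Ctsd*-/- tumors. In 1% FCS it was at 4199, 2858 and 1267 CPM in *Ctsd*+/+ and at 192, 141 and 131 CPM in *Ctsd*-/- cells. Later, in 1% FCS LT, these values were 1627, 1667 and 1895 CPM and 123, 114 and 151 CPM. The genotypes did not overlap in any of these comparisons, and *Ctsd* RNA was lower but still counted in every *Ctsd*-/- sample.

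The labels were next held against markers of cell types. All samples had the epithelial markers *Epcam*, *Cdh1*, *Krt8*, *Krt18* and *Krt19*, but 1 group stood apart. Their summed level in 1% FCS *Ctsd*+/+ cells was 878, 1416 and 1692 CPM, with *Krt8* the most abundant. In the other 3 cell groups, led by *Krt18*, it was 7311, 9668 and 10112 CPM in 1% FCS *Ctsd*-/-, 4702, 4506 and 4284 CPM in 1% FCS LT *Ctsd*+/+ and 5196, 5660.0 and 6011 CPM in 1% FCS LT *Ctsd*-/- cells. The 8 fibroblast markers summed to 1178, 3309.6 and 1673 CPM in 1% FCS *Ctsd*+/+ cells, led by *Col1a1* with 531, 2320.1 and 1460.1 CPM, while 3 of the 8 (*Dcn*, *Lum* and *Thy1*) were at or near 0. That list summed to 11.9, 5.04 and 5.62 CPM in 1% FCS *Ctsd*-/-, 3.05, 4.00 and 8.37 CPM in 1% FCS LT *Ctsd*+/+ and 99.8, 14.4 and 9.51 CPM in 1% FCS LT *Ctsd*-/- cells, where *Pdgfrb* gave most of the highest value (84.9 CPM in replicate 1). The 1% FCS *Ctsd*+/+ samples thus combine low epithelial markers with high collagen and *Pdgfrb* and with hardly any of the matrix and surface markers *Dcn*, *Lum* and *Thy1*. The part of these markers in the results below was not tested. In bulk samples, fewer cells of a type and less RNA per cell cannot be told apart.

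Among the other lists, the 6 myoepithelial markers were led by *Krt14* in all cell groups, with sums of 45.9, 101 and 58.5 CPM in 1% FCS *Ctsd*+/+, 5.74, 8.02 and 8.48 CPM in 1% FCS *Ctsd*-/-, 77.0, 66.9 and 19.3 CPM in 1% FCS LT *Ctsd*+/+ and 5.77, 4.87 and 4.21 CPM in 1% FCS LT *Ctsd*-/- cells. In 1% FCS *Ctsd*-/- and in both 1% FCS LT groups, 5 of the 6 were under 1 CPM, and in 1% FCS *Ctsd*+/+ cells 3 were. The 7 macrophage and leukocyte markers summed to 6.30, 7.39 and 14.1 CPM in 1% FCS *Ctsd*+/+ and 27.3, 15.9 and 11.5 CPM in 1% FCS *Ctsd*-/- cells. After 12 weeks they summed to 55.3, 58.5 and 64.4 CPM in *Ctsd*+/+ and 8.88, 13.6 and 25.1 CPM in *Ctsd*-/- cells. *Csf1r* led this list in both *Ctsd*+/+ groups and *Cd68* in both *Ctsd*-/- groups, and in each of the 4 groups 5 of the 7 were under 1 CPM. The 5 endothelial markers summed to at most 7.01 CPM and the 6 adipocyte markers to at most 1.86 CPM in a cell sample.

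*Rab25* (ENSMUSG00000008601, chromosome 3, 88542029 to 88548300, minus strand) encodes an epithelial GTPase of the Rab11 family on apical recycling endosomes. Its level was 18.5, 17.5 and 22.2 CPM in 1% FCS *Ctsd*+/+ and 107, 127 and 130.1 CPM in 1% FCS *Ctsd*-/- cells. After 12 weeks it was 192, 184 and 149.6 CPM in *Ctsd*+/+ and 77.1, 84.4 and 110.3 CPM in *Ctsd*-/- cells. The 3 samples of 1% FCS *Ctsd*+/+ cells lay far below all others, and the 3 of 1% FCS LT *Ctsd*+/+ cells above all others. The log2 fold change of *Ctsd*-/- minus *Ctsd*+/+ was 2.64 (SE 0.16) in 1% FCS and −0.95 (SE 0.15) in 1% FCS LT, so the order of the genotypes was opposite at the 2 times. *Rab11fip1* (ENSMUSG00000031488, chromosome 8, 27138773 to 27174646, minus strand), an effector that binds Rab11 and Rab25, had the same order of groups. Its level was 26.6, 18.7 and 23.3 CPM in 1% FCS *Ctsd*+/+, 59.9, 61.6 and 64.6 CPM in 1% FCS *Ctsd*-/-, 82.9, 90.8 and 85.0 CPM in 1% FCS LT *Ctsd*+/+ and 52.0, 52.5 and 58.9 CPM in 1% FCS LT *Ctsd*-/- cells. No group of cells overlapped another for this gene. Its difference between the genotypes was 1.44 (SE 0.12) in 1% FCS and −0.66 (SE 0.12) in 1% FCS LT.

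*Myo5b* (ENSMUSG00000025885, chromosome 18, 74440936 to 74771493, plus strand) encodes the myosin V motor that binds Rab11 proteins on recycling endosomes. It stood at 14.6, 17.0 and 22.6 CPM in 1% FCS *Ctsd*+/+ and 109, 114 and 105 CPM in 1% FCS *Ctsd*-/- cells. At 12 weeks it stood at 70.8, 69.6 and 69.0 CPM in *Ctsd*+/+ and 86.2, 85.8 and 124 CPM in *Ctsd*-/- cells. Here the *Ctsd*-/- cells were above the *Ctsd*+/+ cells at both times, by 2.60 (SE 0.18) on the log2 scale in 1% FCS and 0.50 (SE 0.17) in 1% FCS LT. The high value in 1% FCS LT *Ctsd*-/- cells is that of replicate 3, from a different sequencing run than replicates 1 and 2.

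*Crb3* (ENSMUSG00000044279, chromosome 17, 57059105 to 57065918, plus strand), the Crumbs protein of most epithelia, anchors its complex in the apical membrane. Its level was 2.19, 1.22 and 2.98 CPM in 1% FCS *Ctsd*+/+ and 36.3, 38.7 and 36.5 CPM in 1% FCS *Ctsd*-/- cells. Later, in 1% FCS LT, the values were 27.3, 23.1 and 33.9 CPM in *Ctsd*+/+ and 29.5, 31.9 and 52.6 CPM in *Ctsd*-/- cells. *Crb3* was low in the 3 samples of 1% FCS *Ctsd*+/+ cells, and the genotypes overlapped in 1% FCS LT. Among the 9 genes it had the highest log2 fold change between genotypes in 1% FCS, 4.11 (SE 0.32), which is 17.3-fold. It was smaller in 1% FCS LT, at 0.43 (SE 0.27).

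*Pard6b* (ENSMUSG00000044641, chromosome 2, 168081004 to 168101203, plus strand) encodes the Par6 adaptor that holds atypical protein kinase C and Cdc42 together. It was measured at 17.2, 13.3 and 31.9 CPM in 1% FCS *Ctsd*+/+ and 148, 170.2 and 172 CPM in 1% FCS *Ctsd*-/- cells. After 12 weeks these levels were 97.5, 61.3 and 103 CPM and 131, 130.0 and 169 CPM. The *Ctsd*-/- cells were above the *Ctsd*+/+ cells at both times with no overlap, by 2.97 (SE 0.30) in 1% FCS and 0.71 (SE 0.28) in 1% FCS LT. *Prkcz* (ENSMUSG00000029053, chromosome 4, 155260129 to 155361361, minus strand) encodes the zeta form of the atypical kinase, which phosphorylates basolateral proteins off the apical side. Its levels were 1.74, 1.40 and 2.67 CPM in 1% FCS *Ctsd*+/+, 14.3, 14.6 and 16.2 CPM in 1% FCS *Ctsd*-/-, 10.7, 16.0 and 14.4 CPM in 1% FCS LT *Ctsd*+/+ and 9.41, 9.63 and 13.8 CPM in 1% FCS LT *Ctsd*-/- cells. Apart from the 1% FCS *Ctsd*+/+ samples the groups were close, and the genotypes overlapped in 1% FCS LT. The genotype difference was 2.95 (SE 0.26) in 1% FCS and −0.32 (SE 0.24) in 1% FCS LT.

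*Llgl2* (ENSMUSG00000020782, chromosome 11, 115824049 to 115855780, plus strand), a basolateral protein of the Scribble group, is a substrate of the atypical kinase. It was at 34.1, 32.4 and 42.0 CPM in 1% FCS *Ctsd*+/+ and 76.8, 102 and 107 CPM in 1% FCS *Ctsd*-/- cells. After 12 weeks it was at 167, 165 and 170.3 CPM in *Ctsd*+/+ and 71.8, 75.0 and 97.0 CPM in *Ctsd*-/- cells. The 1% FCS LT *Ctsd*+/+ samples were the highest and close to each other. The difference between genotypes was 1.40 (SE 0.16) in 1% FCS and −1.04 (SE 0.15) in 1% FCS LT.

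*Prkch* (ENSMUSG00000021108, chromosome 12, 73584796 to 73778185, plus strand) encodes a calcium-independent protein kinase C of differentiating epithelia. It ranged from 2.02 to 3.03 CPM in 1% FCS *Ctsd*+/+ cells and lay between 8.63 and 11.7 CPM in the other 9 cell samples, whose 3 groups overlapped. The genotype difference was 2.08 (SE 0.19) in 1% FCS and 0.09 (SE 0.18) in 1% FCS LT. *Mpzl2* (ENSMUSG00000032092, chromosome 9, 45039799 to 45054015, plus strand) encodes an adhesion protein with an immunoglobulin-like fold. It had 16.2, 15.5 and 16.6 CPM in 1% FCS *Ctsd*+/+, 74.2, 89.1 and 85.8 CPM in 1% FCS *Ctsd*-/-, 131, 105 and 90.5 CPM in 1% FCS LT *Ctsd*+/+ and 52.3, 54.7 and 67.6 CPM in 1% FCS LT *Ctsd*-/- cells. Its groups did not overlap, and its order was that of *Rab25* and *Rab11fip1*. The difference was 2.36 (SE 0.15) in 1% FCS and −0.91 (SE 0.14) in 1% FCS LT.

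**Figure D1:**
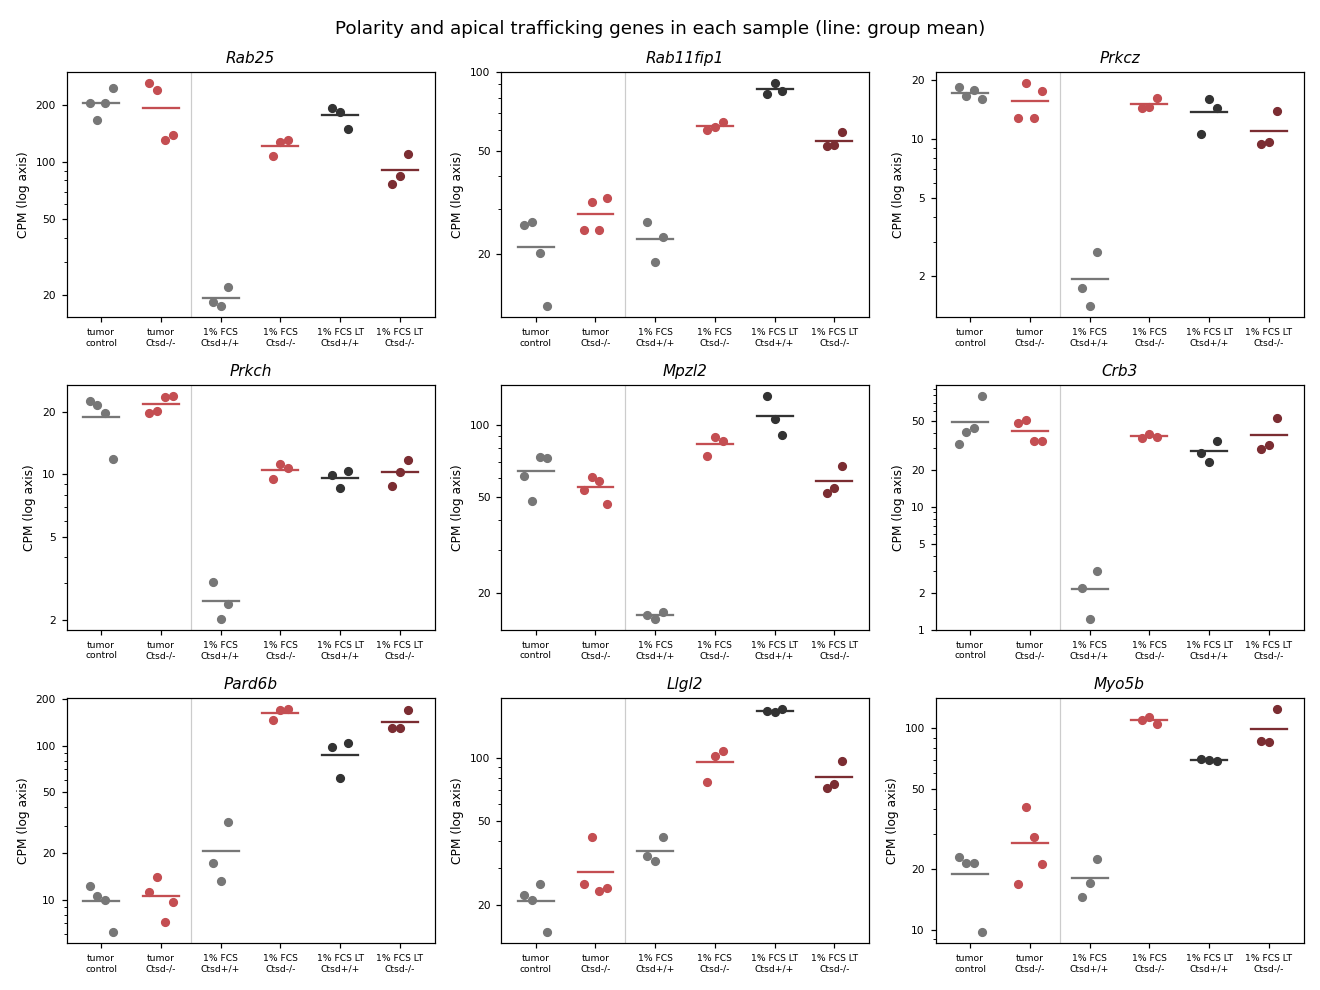
Levels of the 9 genes in each sample, as CPM on a log axis, with 1 point per sample and a line at the group mean. Tumors and cells were scaled separately. In each panel the 3 samples of 1% FCS *Ctsd*+/+ cells lie below the other 9 cell samples.

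Across the cell groups all 9 genes had their lowest mean in 1% FCS *Ctsd*+/+ cells, and for all of them this group was apart from the next. The upper 3 groups differed in order. *Rab25*, *Rab11fip1*, *Mpzl2* and *Llgl2* were highest in 1% FCS LT *Ctsd*+/+ cells, *Pard6b*, *Prkcz*, *Prkch* and *Myo5b* in 1% FCS *Ctsd*-/- cells and *Crb3* in 1% FCS LT *Ctsd*-/- cells. For *Prkcz*, *Prkch*, *Pard6b*, *Crb3* and *Myo5b* the highest group overlapped the next. Within the groups, replicate 3 of 1% FCS LT *Ctsd*-/- cells was the highest for all 9 genes, and replicate 1 of 1% FCS *Ctsd*-/- cells the lowest for 8. Both come from runs other than that of the remaining replicates. In 1% FCS *Ctsd*+/+ cells, replicate 3 was the highest for 7 genes and replicate 2 the lowest for 8. *Pdgfrb* stood at 552, 694 and 159.7 CPM in these 3 samples. The sum of the fibroblast markers had another order, with 1178, 3309.6 and 1673 CPM, lowest in replicate 1.

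Levels of different genes were compared per kb of exon. In 1% FCS LT *Ctsd*+/+ cells *Rab25* had 105 ± 13.5 CPM per kb, *Llgl2* 34.6 ± 0.514 and *Pard6b* 25.7 ± 6.71 (mean ± SD, n = 3). *Crb3* had 18.0 ± 3.47 CPM per kb, *Mpzl2* 15.7 ± 2.98 and *Rab11fip1* 7.98 ± 0.376 in the same cells. The motor and the kinases were the least abundant, with 7.15 ± 0.0906 CPM per kb for *Myo5b*, 2.17 ± 0.432 for *Prkcz* and 1.28 ± 0.122 for *Prkch*. In 1% FCS *Ctsd*+/+ cells the highest of the 9 per kb was again *Rab25*, with 11.6 ± 1.47 CPM per kb, and *Prkcz* the lowest with 0.307 ± 0.104. Control tumors, scaled separately, had 122 ± 18.9 CPM per kb of *Rab25*, 31.2 ± 13.1 of *Crb3* and 2.87 ± 0.764 of *Pard6b*.

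The members were also set against the epithelial markers of the same sample, as log2 CPM minus the mean log2 CPM of the 5 markers. *Rab25* was at −3.31 ± 0.30 in 1% FCS *Ctsd*+/+ and −3.43 ± 0.06 in 1% FCS *Ctsd*-/- cells (mean ± SD, n = 3). *Myo5b* was at −3.43 ± 0.14 and −3.58 ± 0.21, and *Prkcz* at −6.64 ± 0.43 and −6.44 ± 0.17. On this scale these genes lay about as far below the epithelial markers in the group with low levels as in the other genotype. Against the same genotype at 12 weeks, *Rab25* and *Prkcz* were lower relative to the markers after 10 days, since in 1% FCS LT *Ctsd*+/+ cells they were at −2.20 ± 0.14 and −5.89 ± 0.33, with *Myo5b* at −3.52 ± 0.04. *Crb3* and *Mpzl2* were also lower after 10 days than in these 1% FCS LT cells, where they were at −4.85 ± 0.32 and −2.90 ± 0.23. There *Rab11fip1*, *Prkch*, *Pard6b* and *Llgl2* were at −3.22 ± 0.08, −6.37 ± 0.17, −3.24 ± 0.44 and −2.26 ± 0.07, close to their values after 10 days given below. *Crb3* was lower relative to the markers in 1% FCS *Ctsd*+/+ cells, at −6.54 ± 0.69 against −5.13 ± 0.18 in 1% FCS *Ctsd*-/- cells. *Pard6b* was slightly lower, at −3.30 ± 0.56 against −3.00 ± 0.08. The other 4 went the other way, with −6.26 ± 0.62 against −6.95 ± 0.10 for *Prkch*, −3.57 ± 0.37 against −3.98 ± 0.08 for *Mpzl2* and, for *Llgl2* and *Rab11fip1*, −2.42 ± 0.30 against −3.79 ± 0.06 and −3.08 ± 0.55 against −4.40 ± 0.17.

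The genotype comparison in 1% FCS shows how cells without cathepsin D differ from the *Ctsd*+/+ line after 10 days of starvation. All 9 members were past the thresholds and higher in *Ctsd*-/- cells (adjusted p under 0.05 and absolute log2 fold change above 1), beside 10.34% of all 15178 genes tested that were higher and 14.63% that were lower. The groups did not overlap for any of the 9 members (share over all genes not computed). Their median log2 fold change was 2.60, beside 0.00 over all genes tested. Among the 110 companion genes tested, 33 rose and 18 fell, with a median of 0.19. The traffic list had 12 of 44 genes higher and 3 lower (median 0.20). *Rab17*, an epithelial Rab of apical traffic, rose by 4.38 (SE 0.37, adjusted p = 2.9e-06) on the log2 scale, and the apical raft proteins *Mal2* and *Mal* rose by 3.10 (SE 0.17, adjusted p = 1.8e-07) and 2.85 (SE 0.24, adjusted p = 2.6e-06). *Sytl2*, a Rab27 effector, had a log2 fold change of −3.20 (SE 0.54, adjusted p = 4.8e-04). Of the 29 polarity genes tested, 6 rose and 7 fell (median 0.20). *Frmd4b*, a scaffold with a FERM domain, rose by 3.14 (SE 0.32, adjusted p = 1.0e-05), while the scaffold gene *Dlg4* had a value of −3.71 (SE 0.32, adjusted p = 3.3e-06). *Crb1*, another Crumbs gene, was called higher. It had 1, 0 and 0 counts in *Ctsd*+/+ and 19, 17 and 27 counts in *Ctsd*-/- cells, too few for a fold. *Dlg2* was called lower, with 214, 49 and 11 counts in *Ctsd*+/+ and 3, 2 and 1 counts in *Ctsd*-/- cells.

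In the list of immunoglobulin-fold adhesion genes, 7 of 11 rose in 1% FCS *Ctsd*-/- cells and 2 fell (median 1.15). *Igsf5*, *Nectin4* and *Mpzl3*, the last a relative of *Mpzl2*, rose by 3.75 (SE 0.31, adjusted p = 2.9e-06), 3.48 (SE 0.24, adjusted p = 6.0e-07) and 2.71 (SE 0.19, adjusted p = 6.9e-07). *Jam3*, a junctional adhesion molecule, had 573, 595 and 531 counts in the *Ctsd*+/+ samples and no count in a *Ctsd*-/- sample, which makes it at least 601-fold lower (3 counts over the group taken as the limit). The protein kinase C list had 0 higher and 1 lower of 11 by edgeR (median −0.15), the latter being *Prkd1* with −1.43 (SE 0.17, adjusted p = 3.9e-05). At an unadjusted p under 0.05, 2 were higher, and DESeq2 and limma-voom also called 0 higher. Among the 16 regulators of the epithelial and mesenchymal states 8 rose and 5 fell (median 0.68). *Ehf*, an epithelial ETS factor, rose by 3.68 (SE 0.30, adjusted p = 2.1e-06) and *Grhl2*, a grainyhead factor of epithelial junction genes, by 2.19 (SE 0.13, adjusted p = 2.8e-07). The repressors *Zeb1* and *Snai1* fell, with −6.62 (SE 0.64, adjusted p = 7.8e-06) and −3.44 (SE 0.24, adjusted p = 6.6e-07). *Twist2* had 397, 519 and 443 counts in *Ctsd*+/+ and none in *Ctsd*-/- cells, at least 480.4-fold lower. These groups differ in the same samples in epithelial and fibroblast marker sums, as given above. Their part was not tested.

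In 1% FCS LT the members of the 2 genotypes were nearer to each other. Of the 9 members, 0 were past the thresholds and higher and 1, *Llgl2*, was lower in *Ctsd*-/- cells by edgeR, DESeq2 and limma-voom. Over all genes tested, 9.24% were higher and 10.12% lower by edgeR. At an unadjusted p under 0.05 edgeR gave 6 of the 9, beside 7250 of all 15178 genes. The groups did not overlap for 6 of the 9 members (share over all genes not computed). The median of the 9 was −0.32, beside 0.01 over all genes, and single values ran from −1.04 for *Llgl2* to 0.71 for *Pard6b*. Cell-type markers differed here as well. *Cdh1* (−1.05), the myoepithelial marker *Krt14* (−3.78) and the macrophage and leukocyte markers *Csf1r* (−3.42) and *Ptprc* (−1.93) were past the thresholds and lower. From the same list as the last, *Cd68* (1.54) was past them and higher. So were the fibroblast markers *Pdgfra* and *Pdgfrb*, the endothelial markers *Kdr* and *Cdh5* and the adipocyte marker *Fabp4*. Other tested markers of the myoepithelial, fibroblast and endothelial lists were not past the thresholds, and some went the other way. These were *Krt5* (1.86), *Col1a2* (−1.47), *Col3a1* (−3.11) and *Pecam1* (−0.25). The epithelial markers other than *Cdh1* were not past the thresholds, with values from 0.04 for *Epcam* to 0.78 for *Krt18*. The part of these markers was not tested. Of the companion genes tested 16 rose and 10 fell (median 0.13). Polarity genes rose in 5 and fell in 1 of 29 cases (median 0.08). *Mpdz*, a scaffold of the Crumbs complex family, was the gene that fell, with −1.22 (SE 0.13, adjusted p = 3.1e-05). *Frmd4a*, a relative of *Frmd4b* that binds Par3, rose by 2.25 (SE 0.20, adjusted p = 5.9e-06), and *Dlg4* was called higher with 3, 1 and 3 counts in *Ctsd*+/+ and 187, 267 and 114 counts in *Ctsd*-/- cells. *Crb1* and *Crb2* were called higher too, with 4, 1 and 0 and 1, 0 and 2 counts in *Ctsd*+/+ cells and 14, 17 and 24 and 7, 11 and 6 counts in *Ctsd*-/- cells. In the traffic list 4 rose and 1 fell of 44 (median 0.19). *Myo5c*, the myosin V of secretory epithelia, rose by 2.36 (SE 0.20, adjusted p = 5.3e-06), *Sytl1* by 1.56 (SE 0.47, adjusted p = 0.0215) and *Ehd4* by 1.304 (SE 0.13, adjusted p = 1.5e-05), while *Sytl4* fell with −1.38 (SE 0.23, adjusted p = 5.4e-04).

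The adhesion list had 4 genes higher and 1 lower of 11 in 1% FCS LT (median 0.56), with *Nectin1* at 2.50 (SE 0.16, adjusted p = 8.4e-07) and *Nectin2* at 1.57 (SE 0.15, adjusted p = 9.9e-06). The lower one was *Jam3*, with 0, 5 and 3 counts in *Ctsd*+/+ cells and none in *Ctsd*-/- cells. Its groups overlapped, and limma-voom called 0 lower in this list, beside 1 by DESeq2. *Igsf5* and *Nectin3* rose by 1.36 (SE 0.27, adjusted p = 0.00202) and 1.22 (SE 0.23, adjusted p = 0.00146). In the kinase list 1 gene rose, *Pkn3* with 1.21 (SE 0.22, adjusted p = 9.4e-04), and 0 fell by edgeR (median 0.24). At an unadjusted p under 0.05, 1 was lower, and DESeq2 and limma-voom also called 0 lower. Of the regulators 2 rose, *Zeb2* with 3.90 (SE 0.45, adjusted p = 4.3e-05) and *Zeb1* with 2.95 (SE 0.55, adjusted p = 0.00118), and 7 fell (median −0.90). *Zeb1* was at 23.1, 15.9 and 3.14 CPM in the *Ctsd*-/- and 1.76, 1.81 and 1.85 CPM in the *Ctsd*+/+ samples. The lowest of the *Ctsd*-/- values was that of replicate 3, which had the highest member levels. This replicate came from a different sequencing run than replicates 1 and 2, and the order was not tested. *Esrp1*, a splicing factor of epithelial isoforms, fell with −1.24 (SE 0.13, adjusted p = 1.7e-05) and *Grhl3* with −4.29 (SE 0.50, adjusted p = 4.7e-05). *Twist2* had no count in *Ctsd*-/- cells and was at least 371-fold lower.

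Time in culture was compared within each genotype. In *Ctsd*+/+ cells, 12 weeks against 10 days, all 9 members were past the thresholds and higher, beside 11.02% higher and 12.33% lower over all genes. Groups did not overlap for any of these members (share over all genes not computed). This comparison shares its 1% FCS samples with the genotype comparison in 1% FCS. The median of the members was 2.21, beside 0.00 over all genes, from 1.91 (SE 0.12) for *Rab11fip1* to 3.71 (SE 0.31) for *Crb3*. *Rab25* had 3.17 (SE 0.17), *Prkcz* 2.81 (SE 0.26), *Mpzl2* 2.76 (SE 0.15) and *Llgl2* 2.21 (SE 0.16). Companion genes rose in 27 and fell in 19 of 110 cases (median −0.01). In the traffic list 8 rose and 6 fell (median −0.02), among them *Rab17* with 3.72 (SE 0.36, adjusted p = 9.5e-06), *Mal2* with 3.33 (SE 0.18, adjusted p = 1.6e-07), *Mal* with 3.24 (SE 0.24, adjusted p = 1.4e-06) and *Sytl2* with −3.90 (SE 0.57, adjusted p = 1.8e-04). Of the polarity genes 5 rose and 5 fell (median 0.09). *Frmd4b* rose by 2.88 (SE 0.31, adjusted p = 2.2e-05), and *Dlg4*, called lower, went from 792, 938 and 844 to 3, 1 and 3 counts. *Dlg2* and *Crb2*, also called lower, had 0, 10 and 7 and 1, 0 and 2 counts after 12 weeks.

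The adhesion list had 4 genes higher and 3 lower after 12 weeks in *Ctsd*+/+ cells (median −0.01). *Igsf5* rose by 2.77 (SE 0.31, adjusted p = 2.5e-05), *Nectin4* by 2.46 (SE 0.23, adjusted p = 6.0e-06) and *Mpzl3* by 2.16 (SE 0.18, adjusted p = 3.4e-06), and *Jam3*, called lower, had 0, 5 and 3 counts left. In the kinase list 0 rose and 1 fell by edgeR (median −0.50), the latter *Pkn3* with −1.30 (SE 0.22, adjusted p = 4.6e-04). At an unadjusted p under 0.05, 1 was higher, and DESeq2 and limma-voom also called 0 higher. Of the 16 regulators 10 rose and 4 fell (median 2.13). *Zeb1* and *Zeb2* fell with −5.47 (SE 0.59, adjusted p = 2.1e-05) and −5.25 (SE 0.47, adjusted p = 4.9e-06), and *Elf3*, an epithelial ETS factor, rose with 4.31 (SE 0.33, adjusted p = 1.8e-06). *Grhl3*, called higher, went from 2, 1 and 8 to 118, 251 and 151 counts. Here too the marker sums moved, the epithelial one from 878, 1416 and 1692 to 4702, 4506 and 4284 CPM. Their part was not tested.

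In *Ctsd*-/- cells the differences of the members between 10 days and 12 weeks were small. Of the 9, 0 were past the thresholds in either direction by edgeR, and DESeq2 and limma-voom also gave 0, beside 1.11% higher and 0.37% lower over all genes. At an unadjusted p under 0.05 by edgeR, 2 of the 9 were past it, beside 2727 of all 15178 genes. The groups did not overlap for 3 members (share over all genes not computed). The median of the 9 was −0.19, beside 0.00 over all genes, with values from −0.51 for *Mpzl2* to 0.03 for *Crb3*. The summed epithelial markers went from 7311, 9668 and 10112 to 5196, 5660.0 and 6011 CPM with no overlap, and *Cdh1* was past the thresholds and lower (−1.12). Their part was not tested. Among the companion genes 6 rose and 0 fell by edgeR (median −0.02). At an unadjusted p under 0.05, 20 were lower, and DESeq2 called 1 lower and limma-voom 0. Higher were 6 by DESeq2 and 3 by limma-voom, which called none in the adhesion and regulator lists, so not *Jam2* and *Zeb1*. The 6 that rose were *Pard3b* with 2.51 (SE 0.37, adjusted p = 0.00855), *Pard6g* with 1.54 (SE 0.32, adjusted p = 0.0303), *Dlg4* with 1.31 (SE 0.30, adjusted p = 0.0448), *Sytl4* with 1.12 (SE 0.23, adjusted p = 0.0319), *Jam2* with 1.52 (SE 0.34, adjusted p = 0.0422) and *Zeb1* with 4.10 (SE 0.59, adjusted p = 0.00855). *Pard6g* is the relative of *Pard6b*. It was at 5.35, 3.12 and 2.28 CPM after 10 days and 14.1, 9.12 and 8.30 CPM after 12 weeks, with no overlap. This count rests on single samples. It was 1 without replicate 2 and 2 without replicate 3 of 1% FCS *Ctsd*-/- cells, 3 without replicate 1 and 2 without replicate 2 of 1% FCS LT *Ctsd*-/- cells, and 3 without replicate 2 of 1% FCS LT *Ctsd*+/+ cells. By list, 3 of 29 polarity genes (median −0.03), 1 of 44 traffic genes (median −0.02), 1 of 11 adhesion genes (median −0.25) and 1 of 16 regulators (median −0.02) rose. In the kinase list (median 0.11) 0 of 11 were called by edgeR, DESeq2 or limma-voom, with 3 at an unadjusted p under 0.05.

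The corrected comparison is the change over time in *Ctsd*-/- cells minus that in *Ctsd*+/+ cells, and it asks whether the genotypes differ in their response to long starvation. All 9 members were past the thresholds and lower, beside 8.12% lower and 11.03% higher over all genes, with a median of −2.44 beside 0.00. The 5 epithelial markers were also past the thresholds and lower, with log2 fold changes of −3.29 for *Krt19*, −2.89 for *Cdh1*, −2.46 for *Krt18*, −2.41 for *Epcam* and −2.14 for *Krt8*, and the fibroblast markers *Col1a1* and *Pdgfrb* were past them and higher. The lower values are thus not particular to the members, and the part of these markers was not tested. Values ran from −3.68 (SE 0.41) for *Crb3* and −3.60 (SE 0.22) for *Rab25* to −1.998 (SE 0.26) for *Prkch*. The 3 1% FCS *Ctsd*+/+ samples enter this value as well as the comparisons in 1% FCS and over time in *Ctsd*+/+ cells. Within the run that holds 8 cell samples, 2 per group, the median of the members was −2.67 in the corrected comparison and 2.47 between genotypes in 1% FCS. The same run gave a median of −0.49 between genotypes in 1% FCS LT, with 3 members past the thresholds and lower, and −0.39 over time in *Ctsd*-/- cells. The single call in 1% FCS LT therefore rests on the samples used. Without replicate 3 of either genotype it was 3 members, and without replicate 1 or 2 of the *Ctsd*-/- cells it was 0.

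**Figure D2:**
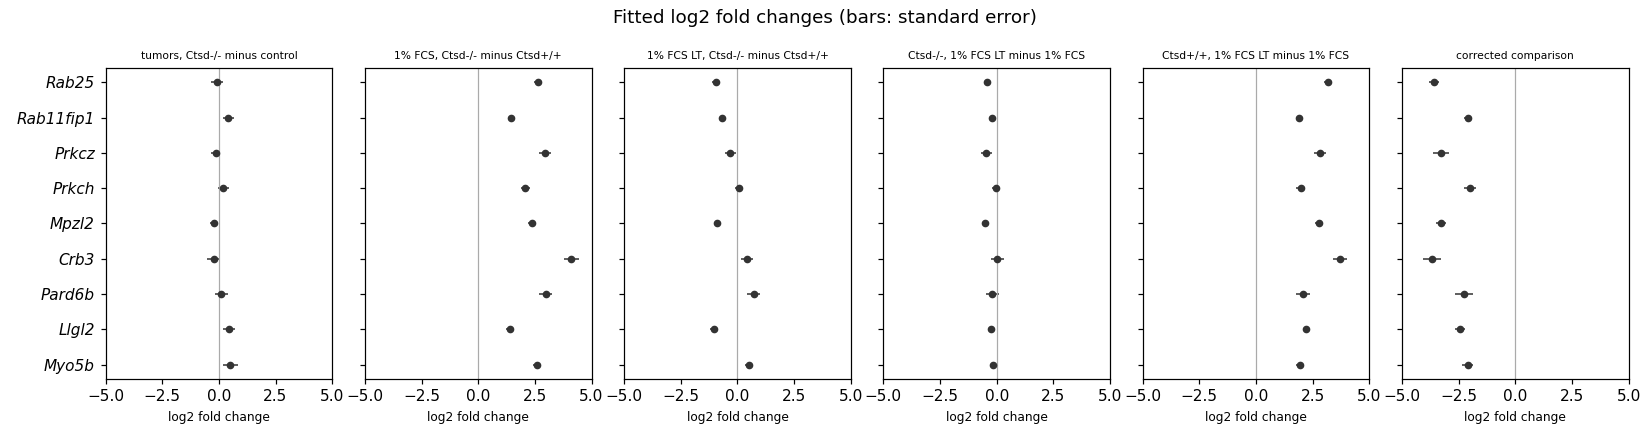
Log2 fold changes of the 9 genes in the 6 comparisons, with bars of 1 SE from the edgeR fit. Values for 1% FCS *Ctsd*-/- minus *Ctsd*+/+ lie between 1.40 and 4.11, and those for the corrected comparison between −3.68 and −1.998.

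Among the companion genes 19 were higher and 28 lower in the corrected comparison (median −0.08). Traffic genes were higher in 5 and lower in 9 of 44 cases (median −0.16), with *Mal* at −3.83 (SE 0.32, adjusted p = 8.9e-06), *Rab17* at −3.71 (SE 0.47, adjusted p = 1.4e-04), *Mal2* at −3.59 (SE 0.23, adjusted p = 1.8e-06) and *Sytl2* at 3.41 (SE 0.78, adjusted p = 0.00662). Polarity genes were higher in 5 and lower in 6 of 29 (median −0.07). *Pard6g* had 4.09 (SE 0.45, adjusted p = 5.6e-05), *Frmd4a* 2.17 (SE 0.27, adjusted p = 1.2e-04) and *Frmd4b* −3.20 (SE 0.42, adjusted p = 1.7e-04). In the kinase list 2 of 11 were higher (median 0.49), *Pkn3* with 1.36 (SE 0.30, adjusted p = 0.00530) and *Prkd1* with 1.07 (SE 0.24, adjusted p = 0.00555). None was called lower by edgeR, DESeq2 or limma-voom, and 2 were lower at an unadjusted p under 0.05. The adhesion list had 3 higher and 4 lower (median 0.09). *Nectin4* had −3.06 (SE 0.31, adjusted p = 3.2e-05), *Mpzl3* −2.42 (SE 0.25, adjusted p = 4.0e-05), *Igsf5* −2.39 (SE 0.40, adjusted p = 0.00106) and *Nectin1* 1.35 (SE 0.22, adjusted p = 8.0e-04). Of the regulators 4 were higher and 9 lower (median −2.54). The higher ones were *Zeb1* with 9.58 (SE 0.84, adjusted p = 1.2e-05), *Zeb2* with 6.31 (SE 0.60, adjusted p = 2.2e-05), *Snai1* with 1.32 (SE 0.31, adjusted p = 0.00813) and *Snai2* with 2.56 (SE 0.44, adjusted p = 0.00114). *Grhl2* with −2.64 (SE 0.18, adjusted p = 2.7e-06) and *Elf3* with −4.06 (SE 0.43, adjusted p = 4.2e-05) were among the lower ones. So was *Grhl3*, with too few counts in 1% FCS for a fold, 2, 1 and 8 in *Ctsd*+/+ and 5, 2 and 2 in *Ctsd*-/- cells.

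The levels behind the regulators show the same group apart. *Zeb1* was at 62.6, 101 and 77.5 CPM in 1% FCS *Ctsd*+/+ and 0.998, 0.548 and 0.887 CPM in 1% FCS *Ctsd*-/- cells, *Zeb2* at 61.7, 68.3 and 57.6 and 11.02, 13.9 and 10.4 CPM. *Snai1* stood at 35.0, 44.1 and 33.0 CPM in 1% FCS *Ctsd*+/+ cells and *Snai2* at 26.0, 17.5 and 25.4 CPM, and both were lower in each of the other 9 cell samples. *Grhl2* was at 23.9, 24.6 and 28.1 CPM in 1% FCS *Ctsd*+/+, 113, 122 and 115 CPM in 1% FCS *Ctsd*-/-, 118, 135 and 126 CPM in 1% FCS LT *Ctsd*+/+ and 79.8, 84.7 and 112 CPM in 1% FCS LT *Ctsd*-/- cells. *Esrp1* had 54.0, 52.0 and 60.7 CPM in 1% FCS *Ctsd*+/+ and 145, 148 and 160.1 CPM in 1% FCS *Ctsd*-/- cells, and *Ovol1*, an epithelial zinc finger factor, had 0.690, 0.458 and 1.41 and 2.75, 2.60 and 4.02 CPM. High *Zeb* and *Snai* levels and low *Grhl2*, *Esrp1* and *Ovol1* levels thus stood in the samples with low member levels. Not all regulators followed this order. *Twist2* had 381, 300 and 408 counts in 1% FCS LT *Ctsd*+/+ cells, close to its 397, 519 and 443 in 1% FCS *Ctsd*+/+ cells, and *Grhl3* was about as low in 1% FCS *Ctsd*-/- cells as in 1% FCS *Ctsd*+/+ cells.

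**Figure D3:**
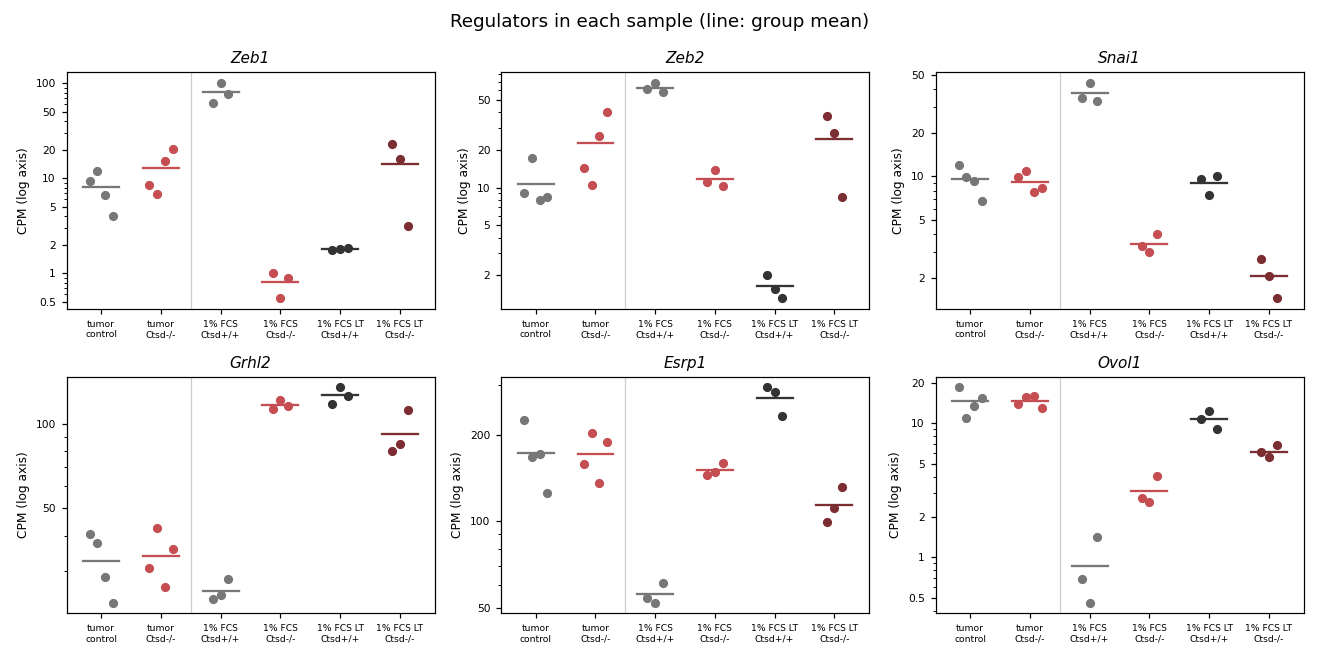
Levels of 6 regulators in each sample, as CPM on a log axis, with 1 point per sample and a line at the group mean. *Zeb1*, *Zeb2* and *Snai1* are highest in 1% FCS *Ctsd*+/+ cells among the cell groups, and *Grhl2*, *Esrp1* and *Ovol1* are lowest there.

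The closest relatives of the members did not share 1 pattern. Of the Rab11 genes that act beside *Rab25*, *Rab11a* was at 46.6 ± 1.06 CPM in 1% FCS *Ctsd*+/+ and 66.8 ± 6.48 CPM in 1% FCS *Ctsd*-/- cells (mean ± SD, n = 3), and *Rab11b* at 90.7 ± 10.5 and 97.2 ± 10.6 CPM. Neither passed the thresholds there, with log2 fold changes of 0.52 (SE 0.10, adjusted p = 0.00113) and 0.10 (SE 0.13, adjusted p = 0.538). The effector genes *Rab11fip2* and *Rab11fip5* rose in *Ctsd*-/- cells in 1% FCS, by 1.05 (SE 0.14, adjusted p = 1.1e-04) and 1.302 (SE 0.12, adjusted p = 4.7e-06). *Myo5a*, the myosin V of melanocytes and neurons, had −0.88 (SE 0.11, adjusted p = 7.2e-05) in 1% FCS and fell with −1.21 (SE 0.12, adjusted p = 8.0e-06) over time in *Ctsd*+/+ cells, where *Myo5b* was higher. *Prkci*, the other atypical kinase, was at 125, 117 and 146 CPM in 1% FCS *Ctsd*+/+ and 210.0, 263 and 245 CPM in 1% FCS *Ctsd*-/- cells, a difference of 0.89 (SE 0.12, adjusted p = 1.1e-04) that did not reach the fold threshold. *Pard6g* fell in 1% FCS *Ctsd*-/- cells, with −2.84 (SE 0.33, adjusted p = 3.0e-05), and *Pard6a* had −0.20 (SE 0.17, adjusted p = 0.345). *Llgl1*, *Prkca* and *Mpzl1* had 0.50 (SE 0.09, adjusted p = 6.1e-04), −0.76 (SE 0.11, adjusted p = 2.2e-04) and 0.57 (SE 0.16, adjusted p = 0.0122), all within the fold threshold.

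In tumors the comparison asks what loss of *Ctsd* in the epithelium leaves different at 18 weeks, and the 9 members overlapped between both groups. At the study's threshold for tumors, an unadjusted p under 0.1, edgeR, DESeq2 and limma-voom put 0 of 9 past it in either direction. Of all 18617 genes tested, 8.44% were higher and 8.27% lower by edgeR. At an unadjusted p under 0.05 edgeR also gave 0 members, beside 1665 of all genes. The count of higher members was 2 without *Ctsd*-/- tumor 1, and 1 without control tumor 1, 2 or 3 or *Ctsd*-/- tumor 3 or 4. The median log2 fold change of *Ctsd*-/- minus control was 0.11, beside 0.00 over all genes, with 5 values above and 4 below 0. *Rab25* was at 204, 165, 204 and 243 CPM in control and 258, 237, 130.3 and 139 CPM in *Ctsd*-/- tumors, a difference of −0.09 (SE 0.27). *Crb3* was at 32.5, 40.1, 43.6 and 78.7 CPM in control and 47.6, 50.9, 33.8 and 33.8 CPM in *Ctsd*-/- tumors, a difference of −0.23 (SE 0.29). Control tumor 4 had the highest value of *Crb3* and *Rab25* among the controls and the lowest of 6 other members. *Llgl2* was at 22.3, 21.1, 25.1 and 14.8 CPM in control and 25.2, 42.0, 23.3 and 23.9 CPM in *Ctsd*-/- tumors, with *Ctsd*-/- tumor 2 above all others and a difference of 0.46 (SE 0.26). *Myo5b* was at 23.0, 21.6, 21.5 and 9.74 and 17.0, 40.8, 28.8 and 21.3 CPM, a difference of 0.51 (SE 0.34), with the lowest value again in control tumor 4 and the highest in *Ctsd*-/- tumor 2. The other 5 had differences of 0.42 (SE 0.25) for *Rab11fip1*, 0.11 (SE 0.29) for *Pard6b*, −0.14 (SE 0.21) for *Prkcz*, 0.20 (SE 0.23) for *Prkch* and −0.22 (SE 0.19) for *Mpzl2*.

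The sums of cell-type markers overlapped between the tumor groups for every list, and their differences were not tested. On average the adipocyte sum was 930 CPM in control and 5653 CPM in *Ctsd*-/- tumors. The 6 adipocyte markers, led by *Fabp4*, summed to 301, 918, 222 and 2280.2 CPM in control and 3003, 1142, 6876 and 11592 CPM in *Ctsd*-/- tumors. The 5 endothelial markers, led by *Pecam1*, summed to 79.7, 94.4, 45.0 and 46.3 and 60.8, 94.0, 234 and 224 CPM. Epithelial markers summed to 5379, 5936, 4632 and 7887 CPM in control and 3991, 4326, 5798 and 4737 CPM in *Ctsd*-/- tumors, with no marker of these 3 lists under 1 CPM on average. The 8 fibroblast markers, led by *Col1a2* in control and *Col1a1* in *Ctsd*-/- tumors, summed to 2218, 3465, 868 and 979.7 and 1697, 2407, 2906 and 2117 CPM. Myoepithelial markers, led by *Acta2*, summed to 924, 1147, 716 and 456 and 503, 743, 1723 and 1225 CPM. Macrophage and leukocyte markers, led by *Csf1r* and *Cd68*, summed to 193, 326, 166 and 128 and 234, 185, 198 and 181 CPM, with 1 of 7 under 1 CPM. With the mean log2 level of the adipocyte markers as a covariate, 2 members were past the tumor threshold and higher, and with that of the epithelial markers 0.

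Of the 116 companion genes tested in tumors 15 were higher and 6 lower at an unadjusted p under 0.1 (median 0.09), beside 8.44% higher and 8.27% lower of all genes at the same threshold. At an adjusted p under 0.05, 0 were called by edgeR and limma-voom and 2 by DESeq2, both higher, and at an unadjusted p under 0.05 edgeR gave 9. The count of higher genes was 25 without *Ctsd*-/- tumor 1, 5 without *Ctsd*-/- tumor 4 and 9 without control tumor 3 or 4. That of lower genes was 2 without control tumor 3 or *Ctsd*-/- tumor 4 and 3 without control tumor 4. Polarity genes were higher in 5 and lower in 1 of 30 (median 0.25). *Crb1* had 8, 2, 0 and 1 counts in control and 275, 223, 106 and 96 counts in *Ctsd*-/- tumors, so that the groups did not overlap. It was called higher, with too few counts in control tumors for a fold. *Scrib*, which gives the Scribble group its name, had 0.73 (SE 0.24, adjusted p = 0.505), *Mark2* 0.48 (SE 0.23, adjusted p = 0.573) and *Lin7c* −0.37 (SE 0.19, adjusted p = 0.586). Traffic genes were higher in 4 and lower in 5 of 44 (median 0.01), with *Rab11fip5* at 0.51 (SE 0.25, adjusted p = 0.576). The lower ones included *Rab17* with −1.57 (SE 0.46, adjusted p = 0.441), *Mal* with −0.99 (SE 0.38, adjusted p = 0.544) and *Rab11a* with −0.73 (SE 0.31, adjusted p = 0.555). In the kinase list 2 of 13 were higher (median 0.20), *Prkce* with 1.03 (SE 0.32, adjusted p = 0.465) and *Prkd2* with 0.52 (SE 0.26, adjusted p = 0.577). In the adhesion list 2 of 14 were (median −0.05), among them *Esam* with 1.05 (SE 0.43, adjusted p = 0.546). Among the regulators 2 of 16 were (median 0.00), *Zeb2* with 1.09 (SE 0.43, adjusted p = 0.544) and *Twist2* with 1.20 (SE 0.60, adjusted p = 0.578). With the adipocyte markers as a covariate, *Zeb2* and *Twist2* had the opposite sign (−0.29 and −0.17), and 6 companion genes were higher and 3 lower. *Rab17*, *Mal*, *Rab11a*, *Prkd2*, *Esam*, *Zeb2* and *Twist2*, whose groups overlapped, and above *Mpdz* and *Jam3* in 1% FCS LT were named after their values were seen. The kinase, adhesion and regulator lists had no gene called lower by edgeR, DESeq2 or limma-voom, also at an unadjusted p under 0.05. *Crb1* was at 4.18, 3.43, 1.59 and 1.59 CPM in the *Ctsd*-/- tumors, far below *Crb3* in the same tumors.

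The 10 genes most like the members were found by the Pearson correlation over the 12 cell samples with the members' mean centred log2 CPM, among 11509 candidates. They were *Ralgps2* (r = 0.99), *Cmtm4* (0.99), *Ap1m2* (0.99), *Map7* (0.99), *Esrp2* (0.99), *Grhl2* (0.99), *Kdf1* (0.99), *Sigirr* (0.99), *Mbp* (0.99) and *Ocln* (0.99). The 12 samples fall into 4 groups with the 1% FCS *Ctsd*+/+ samples apart, and these set much of r. Without them, r over the other 9 samples ran from 0.58 for *Mbp* to 0.92 for *Esrp2*. Over the 8 tumors it ran from −0.56 for *Ocln* to 0.77 for *Grhl2*. *Ap1m2*, the epithelial subunit of an adaptor that sorts basolateral cargo, was at 13.9 ± 1.63 CPM in 1% FCS *Ctsd*+/+ and 80.8 ± 1.65 CPM in 1% FCS *Ctsd*-/- cells. *Ocln*, the tight junction gene, had means of 9.78 and 75.2 CPM there.

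Since members were low together in 1 group, their promoters were read for the motif CACCTG, E-box letters that factors of the Zeb and Snai families are known to bind, on both strands (CAGGTG on the other). The sequences are RefSeq's for GRCm38.p6, and the 250 bases before each annotated start were searched. The table held 4 of the 9 members, *Rab25*, *Prkcz*, *Crb3* and *Pard6b*, with 7 starts, and had no entry for *Rab11fip1*, *Prkch*, *Mpzl2*, *Llgl2* and *Myo5b*. Of these 7 windows 6 held the motif, and so did 17.2% of the 32851 promoters in the table. The members and the motif were chosen after the levels were seen and the windows are not independent, so the 2 shares are not compared. The 2 windows of *Crb3* overlap each other, and 1 of the *Prkcz* windows with the motif has all its 250 bases in exons of *Prkcz*. A match is a description of letters in a window and not a binding site. The windows of 3 members are shown to let the motif be seen in its place, in lower case with the motif in capitals, 5′ to 3′, up to the annotated start or, for *Rab25*, up to the bases that lie in its exon. They are chr3:88548301-88548529 on the minus strand upstream of *Rab25*, chr4:155361429-155361678 on the minus strand upstream of the outermost start of *Prkcz*, and chr2:168080754-168081003 on the plus strand upstream of *Pard6b*.
Rab25: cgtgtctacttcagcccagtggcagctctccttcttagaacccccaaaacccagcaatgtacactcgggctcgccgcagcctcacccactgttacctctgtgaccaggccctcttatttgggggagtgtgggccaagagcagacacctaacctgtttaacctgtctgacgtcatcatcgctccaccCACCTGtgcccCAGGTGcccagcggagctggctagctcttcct
Prkcz: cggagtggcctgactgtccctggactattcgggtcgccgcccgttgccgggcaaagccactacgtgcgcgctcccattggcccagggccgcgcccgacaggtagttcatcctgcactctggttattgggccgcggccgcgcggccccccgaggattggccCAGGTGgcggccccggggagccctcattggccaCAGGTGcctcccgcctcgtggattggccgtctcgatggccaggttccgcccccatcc
Pard6b: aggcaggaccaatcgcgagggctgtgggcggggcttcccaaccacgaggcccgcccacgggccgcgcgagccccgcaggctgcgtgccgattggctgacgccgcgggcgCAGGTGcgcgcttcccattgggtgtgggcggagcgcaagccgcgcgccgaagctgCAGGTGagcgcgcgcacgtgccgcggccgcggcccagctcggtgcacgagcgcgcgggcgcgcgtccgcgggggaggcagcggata
Each of the 3 windows holds 2 matches, at 64 and 53 bases before the start in *Rab25*, 90 and 57 in *Prkcz* and 141 and 86 in *Pard6b*, counted from the first base of the match. *Crb3* has 3 in each window, not shown because the windows reach into its exons.

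In tumors the counts have no strand, and reads in exon stretches that a gene shares with one on the opposite strand are left out, as they map to several genes. Exons of *Rab11fip1*, *Mpzl2* and *Crb3* overlap such genes (*4933416M07Rik*, *Gm48840* and *Dennd1c*), with next to no loss of counts for *Mpzl2* and *Crb3*. For *Rab11fip1* there is a loss in cells, with 22404 counts without strand beside 25763 on the opposite strand, so its tumor levels are lower than with strand. In cells, between 98.7% and 99.98% of the stranded counts of each member lay on the strand of the gene's RNA.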

How the data were processed

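Before deposit the authors used Trimmomatic on the reads and STAR for alignment to GRCm38 (mm10). What they deposited are read counts per gene without normalization, in columns without strand, on the same strand and on the opposite strand. The column without strand was used in tumors, where 52.8% to 53.7% of the stranded counts lay on the opposite strand, and the opposite strand in cells, where 97.1% to 97.3% did. Reads that map to several places or to several genes are not in these counts. Symbols and positions come from GENCODE M21, which held 45143 of the 45706 gene identifiers. *Vamp7* was not matched and is not analysed here.

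The tests are those of edgeR 4.0.16 in R 4.3.3 (filterByExpr, TMM, two-sided quasi-likelihood F-test, Benjamini-Hochberg over all genes tested), separately for the 8 tumors and the 12 cell samples. This tested 18617 and 15178 genes, with a common biological coefficient of variation of 0.429 and 0.217. Adjusted p-values in the text are edgeR's. The thresholds follow the study, with an unadjusted p of 0.1 in tumors and an adjusted p of 0.05 with an absolute log2 fold change above 1 in cells. The study's expression minimum of 1.3, given without a unit, was not part of them and was used as an alternative. A standard error (SE) is the log2 fold change divided by the square root of the F statistic. DESeq2 1.42.0 and limma-voom (limma 3.58.1) were alternatives, beside DESeq2 size factors, other filters, a replicate block, leaving out each sample, a single sequencing run, counts without strand, an average log2 CPM above 1.3, the compared groups alone, and marker covariates in tumors. The steps were tested on simulated data. A gene at 0 in a group has its fold given against 3 counts over that group, which covers counting error only.

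The members and lists were chosen with earlier results of these data known. Genes named are the members, *Ctsd*, their closest relatives, 7 regulators, from each list and comparison up to 4 called genes with the largest absolute log2 fold change and groups that do not overlap, and the 10 genes most like the members. Not all of these are printed, and 1 gene is not reported here. The lists share *Prkci*, and hold 31, 45, 13, 14 and 16 genes.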

Additional observations from a re-analysis of the deposited data

Results flagged for a closer look

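In 8 of 138 groups of 4 tumors 1 value lay far from the other 3 (Dixon's ratio above its 95% critical value). Chance alone gives this in about 1 in 20 groups. Among the members these were *Llgl2* in *Ctsd*-/- tumor 2 (42.0 CPM) and *Myo5b* in control tumor 4 (9.74 CPM). The others were *Ehf* in *Ctsd*-/- tumor 2 (476 CPM), *Mpzl1* in control tumor 3 (207 CPM), *Nectin1* in *Ctsd*-/- tumor 3 (86.6 CPM), *Pkn3* in control tumor 1 (7.78 CPM), *Rab11fip5* in control tumor 4 (29.1 CPM) and *Zeb2* in control tumor 2 (17.3 CPM).

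In the corrected comparison 19 of the 110 companion genes tested were higher and 28 lower, beside 11.03% higher and 8.12% lower over all genes. *Ap1m2* (−3.06) and *Esrp2* (−2.44), named for their likeness to the members, were among those lower. Listed here are 31 other named companion genes whose change over time differed between the genotypes, by the test of that difference (log2 scale, edgeR). Some of these 31 were named because they were called in this comparison. Those higher in *Ctsd*-/- cells were *Dlg4* 9.90, *Zeb1* 9.58, *Zeb2* 6.31, *Pard6g* 4.09, *Sytl2* 3.41, *Snai2* 2.56, *Frmd4a* 2.17, *Pard3b* 1.76, *Myo5c* 1.59, *Jam2* 1.55, *Pkn3* 1.36, *Nectin1* 1.35, *Myo5a* 1.32, *Snai1* 1.32, *Nectin3* 1.19 and *Prkd1* 1.07. The value of *Dlg4* depends on 1 to 3 counts in the 1% FCS LT *Ctsd*+/+ samples and is not a measured fold. Nor is that of *Grhl3*, with 2, 1 and 8 counts in 1% FCS *Ctsd*+/+ and 5, 2 and 2 in 1% FCS *Ctsd*-/- cells. Those lower were *Elf3* −4.06, *Grhl3* −3.93, *Mal* −3.83, *Ehf* −3.74, *Rab17* −3.71, *Mal2* −3.59, *Frmd4b* −3.20, *Nectin4* −3.06, *Esrp1* −2.68, *Ovol1* −2.66, *Grhl2* −2.64, *Mpzl3* −2.42, *Igsf5* −2.39, *Rab11fip5* −1.31 and *Mark2* −1.11.

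For some members the groups did not overlap in either of 2 comparisons, and the 2 log2 fold changes had opposite signs. The difference between the 2 values is that of the corrected comparison, where all 9 members were past the thresholds. The members were chosen with these values known, so this describes them and does not serve as a test. Between the genotypes, *Rab25* had 2.64 in 1% FCS and −0.95 in 1% FCS LT, *Rab11fip1* 1.44 and −0.66, *Mpzl2* 2.36 and −0.91, and *Llgl2* 1.40 and −1.04. Over time, *Rab11fip1* had −0.19 in *Ctsd*-/- and 1.91 in *Ctsd*+/+ cells, *Prkcz* −0.46 and 2.81, and *Mpzl2* −0.51 and 2.76.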

How the results depend on the processing

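Counts of members called in 1% FCS, over time in *Ctsd*+/+ cells and in the corrected comparison were 9 under every alternative run, and DESeq2, limma-voom and DESeq2 size factors shifted the median of all genes by less than 0.02. Over the counts and medians that answer a comparison, 798 alternative values were within 1.5 times the count, or for a median within 1 pooled SD of the samples, and 84 were not. Where no cause is named, the cause was not tested.

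In tumors, without the filter 2703 genes were higher, 2734 lower and 1 member higher. With replicate number as a block, 8 companion genes were higher, 3 lower and 711 of all genes lower. In tumors the numbers do not pair the samples, since 0 of 8 correlated best with the sample of the same number. With the epithelial covariate 795 genes were lower. With the adipocyte covariate 6 companion genes were higher and 3 lower, 880 of all genes higher and 865 lower, and 2 members higher. It also reversed *Myo5a* (−0.15), *Zeb2* (−0.29), *Twist2* (−0.17) and *Grhl3* (1.54). At an adjusted p under 0.05 by edgeR, 0 companion genes were called in either direction (9 at an unadjusted p under 0.05, and 2 by DESeq2), and of all genes 1 was higher and 0 lower. Leaving out 1 tumor gave 0 to 2 members higher, 5 to 25 companion genes higher and 2 to 9 lower, and 980 to 2156 of all genes higher and 827 to 2309 lower.

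With at least 10 counts in every sample, fewer genes are tested. 935 were then higher and 1230 lower between genotypes in 1% FCS, 830 and 843 in 1% FCS LT, 84 and 33 over time in *Ctsd*-/- cells, and 973 and 1126 over time in *Ctsd*+/+ cells. With an average log2 CPM above 1.3 required, the counts were 997 and 1325, 914 and 860, 108 and 37, and 953 higher over time in *Ctsd*+/+ cells.

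The counts over time in *Ctsd*-/- cells were small, and many alternatives moved them. DESeq2 gave 397 higher and 105 lower, with 1 companion gene lower, limma-voom 3 companion genes higher, and no filter 383 higher and 92 lower. A fit to these 2 groups alone gave 3 companion genes higher, 1 lower and 85 of all genes lower. Within the run of 8 samples, 405 were higher and 2 companion genes lower, and the median of the members was −0.39. Leaving out 1 sample gave 27 to 233 higher and 20 to 78 lower, with 1 to 6 companion genes higher and 0 to 1 lower. Counts without strand gave *Twist2* 3.17 here, where the counts used are 0 in all 6 samples and give no direction.

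In 1% FCS LT the members lower were 0 to 3 when 1 sample was left out and 3 within the run of 8. The median of the members over time in *Ctsd*+/+ cells was 2.15 to 2.52 and in the corrected comparison −2.72 to −2.35 over the samples left out, at the far end without replicate 3 of 1% FCS *Ctsd*+/+ cells. Within the run the latter was −2.67. With the replicate block it was −2.46. In cells 5, 4, 6 and 0 of 6 samples correlated best with their own number between genotypes in 1% FCS, in 1% FCS LT, and over time in *Ctsd*-/- and in *Ctsd*+/+ cells. The fit that gave the SE and p-values of the cells has no term for replicate or run. Groups of 3 or 4, 1 cell line per genotype and genotype sequenced apart in tumors limit what these values can show.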
